A study of Mus musculus with 46 samples.

Results

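Microglial identity transcription factors are described here across 6 groups of mouse microglia: Sall1, Sall3, Spi1, Irf8, Maf, Runx1, Cebpa, Mef2a and Mef2c. The 9 genes were taken by name from a table of raw read counts for 54134 genes, and all 9 had enough counts to be tested, of 12121 genes in all. The groups were AD mice on a HAMSAB diet (8 libraries), WT mice on HAMSAB (8), AD mice on a zero fiber diet (8), WT mice on zero fiber (6), AD mice on a control diet (8) and WT mice on the control diet (8). AD denotes 5xFAD mice, which carry human transgenes with familial Alzheimer's disease mutations under the neuronal Thy1 promoter, and WT denotes wild type. HAMSAB is a high-amylose maize starch carrying acetate and butyrate, short-chain fatty acids that bacteria free in the gut. Each group held 4 female and 4 male libraries, except zero fiber WT with 2 males. Neither the age of the mice nor their separate origin is stated in the labels, so the p-values cover library-to-library spread, which may be technical.

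Microglia arise from yolk sac macrophages, and their gene program is set by transcription factors that act together at shared enhancers. PU.1, the product of Spi1, opens macrophage enhancers and pairs with IRF8, while RUNX1 and C/EBP alpha take part in myeloid commitment. SALL1 and SALL3 are zinc finger factors, and SALL1 keeps microglia apart from other macrophages in mice. MAF and the MEF2 factors are tied to the mature, homeostatic state of microglia, and MEF2 proteins bind AT-rich elements of many microglial genes.

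Total counts ran from 52114 to 6950429 per library (median 2344837.5), and 44 of the 46 libraries had at least 1000000. A pair of libraries was doubted: zero fiber AD replicate 1, whose sex genes go against its label, and zero fiber AD replicate 3, which had the lowest total. Levels are given as CPM, counts per 1000000 of a library's counts in the 12121 tested genes, after TMM scaling. The 12 microglial markers, such as P2ry12 and Tmem119, summed to between 29914 and 51081 CPM (median 41934 CPM), which fits the labelled cell type. Markers of monocytes summed to at most 25.9 CPM and those of neutrophils to at most 21.7 CPM, with Ly6g at 0 in all libraries. Sums were higher for other types, at most 684 CPM for red blood cells, 464 for perivascular macrophages, 377 for astrocytes and 267 CPM for oligodendrocytes. They reached 126 CPM for endothelial cells, 81.2 for lymphocytes and 36.3 CPM for neurons.

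Promoter sequences of 3 members are shown because the expression results turn on the pair of MEF2 paralogs, of which one fell on HAMSAB against control and the other was called in no comparison of groups, and on Runx1, which varied most closely with Mef2a. They run 5′ to 3′ on the gene's strand from 250 bases before to 50 bases after the first start site listed by RefSeq for GRCm38.p6. The windows are chr7:67372809-67373108 (minus strand) for Mef2a, chr13:83503784-83504083 (plus strand) for Mef2c and chr16:92826025-92826324 (minus strand) for Runx1. Capitals mark matches, on either strand, to motifs of the members' own families.
Mef2a: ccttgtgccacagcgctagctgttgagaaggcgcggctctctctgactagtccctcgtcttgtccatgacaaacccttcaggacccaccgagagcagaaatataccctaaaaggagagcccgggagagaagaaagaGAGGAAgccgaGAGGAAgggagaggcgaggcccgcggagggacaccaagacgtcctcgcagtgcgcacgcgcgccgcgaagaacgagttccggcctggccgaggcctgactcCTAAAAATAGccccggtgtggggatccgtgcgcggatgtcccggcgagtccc
Mef2c: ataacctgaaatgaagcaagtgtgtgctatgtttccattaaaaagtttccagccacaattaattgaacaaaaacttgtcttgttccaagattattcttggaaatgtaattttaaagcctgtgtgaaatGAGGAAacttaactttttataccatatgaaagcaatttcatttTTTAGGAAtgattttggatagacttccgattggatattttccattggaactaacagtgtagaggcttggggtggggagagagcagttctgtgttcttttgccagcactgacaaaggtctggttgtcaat
Runx1: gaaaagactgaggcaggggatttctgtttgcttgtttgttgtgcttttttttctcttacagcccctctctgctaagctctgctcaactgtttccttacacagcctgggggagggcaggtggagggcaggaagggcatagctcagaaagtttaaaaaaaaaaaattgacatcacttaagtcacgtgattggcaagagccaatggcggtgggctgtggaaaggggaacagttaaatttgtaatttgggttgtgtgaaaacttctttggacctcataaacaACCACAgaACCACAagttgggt
The motifs searched were GAGGAA for the ETS core that PU.1 binds, TGTGGT or TGCGGT for RUNX factors, the C/EBP motif (TT, any base, C, any 2 bases, AA), TGCTGA for MAF factors, and the MEF2 motif. The Mef2a window held 2 ETS cores and 1 MEF2 motif at its start site. The Mef2c window held 1 ETS core and 1 C/EBP motif, and the Runx1 window held 2 RUNX motifs. Among 32851 RefSeq promoter windows of the same length, 28.3% held the ETS core, 22.4% a RUNX motif, 40.7% a C/EBP motif, 19.5% a MAF motif and 0.557% a MEF2 motif. The windows also differed in base composition, with 62.3% G and C for Mef2a, 35.7% for Mef2c and 45% for Runx1. Further start sites are listed for Mef2c (47% and 48.3% G and C) and Runx1 (69%), whose windows are not shown. That second Runx1 window held 1 ETS core and no RUNX motif. Which start site these cells use was not tested. A match is a description of these letters only.

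All 9 factors were expressed in every library, at levels that spanned an order of magnitude once divided by exon length. Maf was highest at 150 ± 25.9 CPM per kb of exon (SD, n = 46) and ranked 253 among 11986 genes with a length. Irf8 stood at 121 ± 9.41, Sall1 at 120 ± 26.1 and Spi1 at 112 ± 11.2 CPM per kb. Mef2c followed at 82.7 ± 8.81 and Mef2a at 61.5 ± 6.85 CPM per kb. Cebpa and Sall3 shared a lower level, 29.9 ± 9.05 and 29.8 ± 7.74 CPM per kb, and Runx1 was lowest at 11.6 ± 2.61 CPM per kb, rank 3852. The exon length used joins the exons of all annotated transcripts of a gene. Which transcripts these cells express was not determined, so the order and ranks depend on that choice of length. Before division by length, Cebpa was lowest at 78.8 CPM with Runx1 at 140 CPM. Mef2c was then highest at 1299 CPM, with Maf at 1236 CPM.

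The order held library by library for some neighbours and not for others. Of the 44 libraries with at least 1000000 counts, Spi1 exceeded Mef2c per kb in 43, and Mef2c exceeded Mef2a in 44. Maf exceeded Irf8 in 39 of 44. The order of Irf8 over Sall1 held in 28, that of Sall1 over Spi1 in 30 and that of Sall3 over Cebpa in 22 of 44 libraries. The order of these neighbours thus varied between libraries, and whether their levels differ was not tested.

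**Figure D1:**
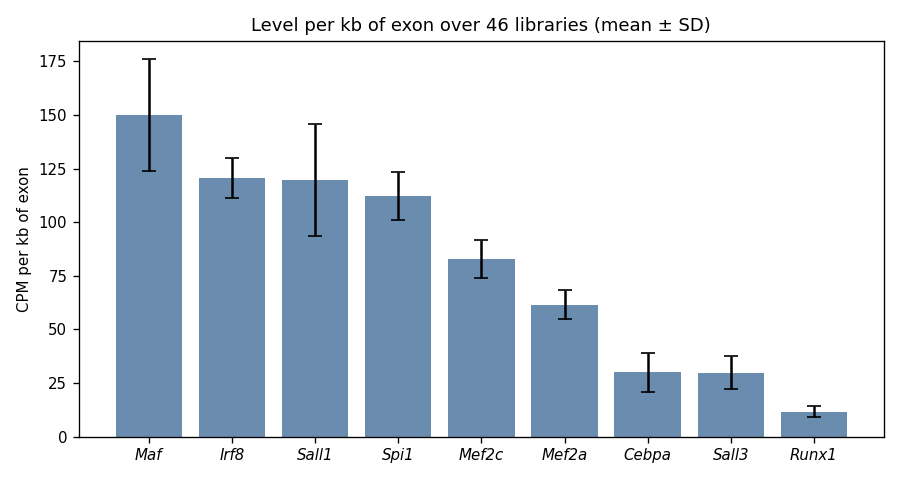
Mean level of each factor in CPM per kb of exon over the 46 libraries of all 6 groups, with the SD as error bars. Maf, Irf8, Sall1 and Spi1 stood above 100 CPM per kb and Runx1 at 11.6 CPM per kb.

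The factors also differed in how steady they were. Irf8 had the smallest coefficient of variation (SD over mean) of all 12121 genes tested, 6.51% over the 44 deeper libraries. Spi1 followed at 8.80%, with 40 tested genes below it, Mef2c at 10.002% with 148 below it and Mef2a at 11.3% with 401 below it. Maf varied by 17.5%, Cebpa by 20.3%, Sall1 and Runx1 both by 20.8%, and Sall3 by 25.5%. The median over all genes tested was 23.1%, a value that includes genes of low count, whose counting error is larger.

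**Figure D2:**
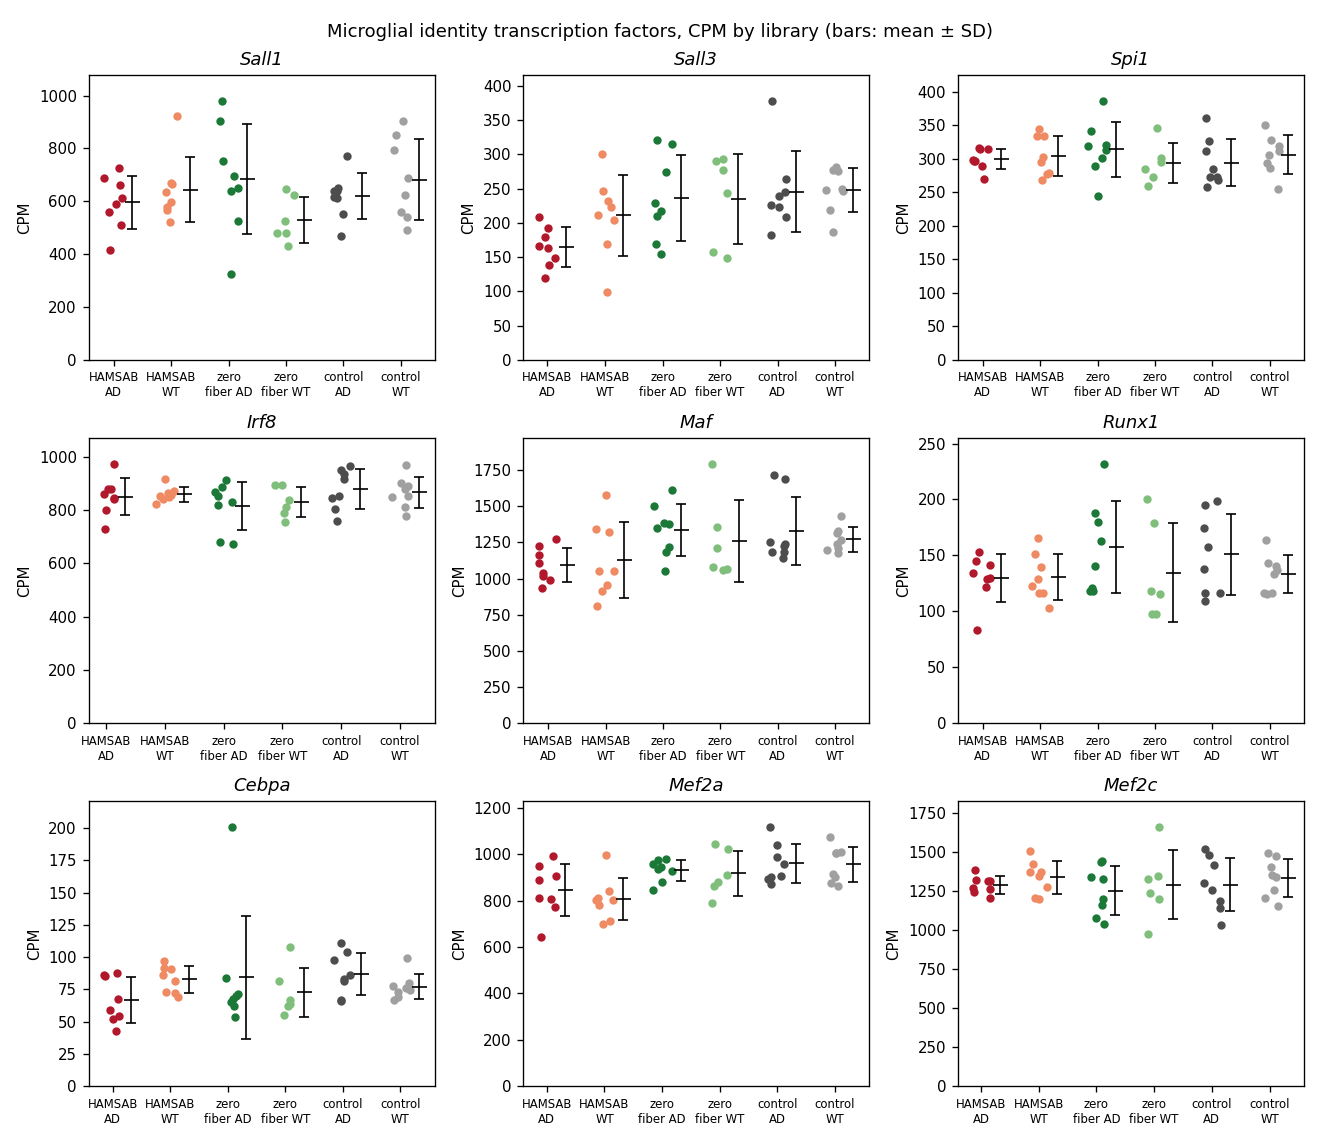
CPM of each factor in each of the 46 libraries by group, from HAMSAB AD on the left to control WT on the right, with the group mean ± SD beside the points. Sall3, Maf and Mef2a sat lower in many HAMSAB libraries, while Spi1, Irf8 and Mef2c lay at like levels in all 6 groups.

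The HAMSAB diet was compared with the control diet over both genotypes, in a fit that gave AD and WT and both sexes equal weight. Sall3 and Mef2a fell on HAMSAB, and the other 7 factors did not pass the test (edgeR quasi-likelihood test, Benjamini-Hochberg adjusted over 12121 genes). These are 2 of 9 factors, both lower on HAMSAB, where 4.52% of all genes tested were called and 2.21% were called lower. Over the 9 factors the median log2 fold change was -0.13, with 7 lower and 2 higher, against a median of 0.0024 over all genes tested.

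Sall3, the paralog of Sall1 (chromosome 18, 80966376 to 80986771, GRCm38, minus strand), had 120, 164 and 209 CPM in HAMSAB AD libraries (lowest, median and highest) and 99.4, 218 and 300.3 CPM in HAMSAB WT libraries. In control AD libraries it had 183, 232 and 378 CPM, and in control WT libraries 186, 249 and 282 CPM. Of the 16 HAMSAB libraries, 14 lay below the median of the control libraries and 8 below the lowest of them, so the groups overlapped in part. The mean was 188 ± 50.8 CPM on HAMSAB and 247 ± 45.97 CPM on the control diet (SD, n = 16 each), a log2 fold change of -0.41 ± 0.11 (SE; edgeR adjusted p = 0.0252). Zero fiber libraries averaged 236 ± 61.4 CPM (SD, n = 14). Within WT mice alone, HAMSAB against control gave -0.24 ± 0.16 for Sall3 (SE, edgeR adjusted p = 0.551). In AD mice alone it gave -0.58 ± 0.16 (adjusted p = 0.0705). Neither passed the test, nor did the difference between the genotypes in this diet effect (-0.34 ± 0.22, adjusted p = 0.926).

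Title numbers of the libraries fall into a lower and a higher series, which the labels do not call batches. HAMSAB AD replicate 8 belongs to neither series and was left out of every value given by series. The difference of Sall3 between HAMSAB and control, as mean log2 CPM, was -0.26 among lower numbers (10 HAMSAB and 5 control libraries) and -0.70 among higher numbers (5 HAMSAB and 11 control). Each value is the mean of the AD and WT differences. The lower control libraries were 4 AD and 1 WT, so the WT part there rests on 1 control library. In AD mice the difference was -0.46 among lower and -0.76 among higher numbers, and in WT mice -0.07 and -0.64. All had the same sign, and the fit with a term for the series gave -0.50. Zero fiber against control gave 0.06 among lower numbers, with the same 1 control WT library, and -0.39 among higher numbers.

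Mef2a, a MADS box factor (chromosome 7, 67231163 to 67372858, minus strand), had 643, 852 and 994 CPM in HAMSAB AD libraries and 698, 804 and 999 CPM in HAMSAB WT libraries (lowest, median and highest). In control AD libraries it had 872, 934 and 1117 CPM, and in control WT libraries 862, 960 and 1075 CPM. Of the 16 HAMSAB libraries, 13 lay below the control median and 11 below the lowest control library. Its mean was 828 ± 101 CPM on HAMSAB and 958 ± 78.0 CPM on the control diet (SD, n = 16 each), a log2 fold change of -0.21 ± 0.06 (SE; edgeR adjusted p = 0.0252). By title series, the difference in mean log2 CPM was -0.27 for lower and -0.21 for higher numbers. In AD mice it was -0.15 for lower and -0.13 for higher numbers. In WT mice it was -0.38 for lower numbers, with 1 control library, and -0.29 for higher numbers.

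The Mef2a call ended when each library's trend of expression on transcript length was removed (log2 fold change -0.16, edgeR adjusted p = 0.0629), while that of Sall3 held (-0.38, adjusted p = 0.0324). That trend, the slope of log2 CPM on log2 exon length, averaged -0.0143 ± 0.0291 on HAMSAB and 0.0125 ± 0.0195 on the control diet (SD, n = 16 each). Mef2a was also not called without control AD replicate 3 (edgeR adjusted p = 0.0535) or without the low-count filter (adjusted p = 0.089), where Maf was called. Mef2a overlaps Lysmd4 on the other strand and the unclassified transcripts Gm44667 and Gm44668 on its own strand. Whether the counting used strand is not given in the sources used here, and strand would not separate those 2 transcripts from Mef2a. The part of these overlaps in the Mef2a difference was not tested.

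Maf, a bZIP factor (chromosome 8, 115682942 to 115707794, minus strand), had 937, 1075 and 1275 CPM in HAMSAB AD libraries and 813, 1051 and 1578 CPM in HAMSAB WT libraries (lowest, median and highest). The control AD libraries had 1140, 1233 and 1718 CPM and the control WT libraries 1176, 1255 and 1434 CPM. Of 16 HAMSAB libraries, 10 lay below the lowest control library, and 12 below the control median. The log2 fold change was -0.23 ± 0.08 (SE) and missed the threshold (edgeR adjusted p = 0.0777). limma voom with quality weights called it (adjusted p = 0.0463).

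Maf is also expressed by perivascular macrophages, whose 9 markers summed to 219 ± 30.4 CPM on HAMSAB and 265 ± 76.8 CPM on the control diet (SD, n = 16 each). In AD mice that sum ran from 170 to 223 CPM on HAMSAB and from 169 to 402 CPM on the control diet, with none of the 9 markers at 0 in all libraries of a group. In WT mice it was 239.6 ± 21.5 CPM on HAMSAB and 236 ± 51.3 CPM on the control diet (SD, n = 8 each), where Maf had a log2 fold change of -0.18 ± 0.11 (SE). The 8 neuronal markers summed to 16.5 ± 7.99 CPM on HAMSAB and 9.46 ± 3.84 CPM on the control diet. The part of either cell type in these differences was not tested. In bulk libraries, fewer cells of a type and less RNA per cell cannot be told apart.

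The 6 remaining factors spread on both sides of 0. Runx1, the Runt factor (chromosome 16, 92601466 to 92826149, minus strand), had a log2 fold change of -0.13 ± 0.10 and Cebpa (chromosome 7, 35119293 to 35121928, plus strand) one of -0.15 ± 0.10 (SE). Sall1 (chromosome 8, 89027235 to 89044162, minus strand) stood at 620 ± 112 CPM on HAMSAB and 650 ± 125 CPM on the control diet, with a 95% confidence interval of the log2 fold change from -0.26 to 0.13. Intervals were narrower for the steady factors: -0.11 to 0.12 for Spi1 (chromosome 2, 91082390 to 91115756, plus strand), -0.13 to 0.07 for Irf8 (chromosome 8, 120736358 to 120756694, plus strand) and -0.12 to 0.12 for Mef2c (chromosome 13, 83504034 to 83667080, plus strand). For these 3 genes the data bound any difference in mean between HAMSAB and control to that range at 95% confidence.

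**Figure D3:**
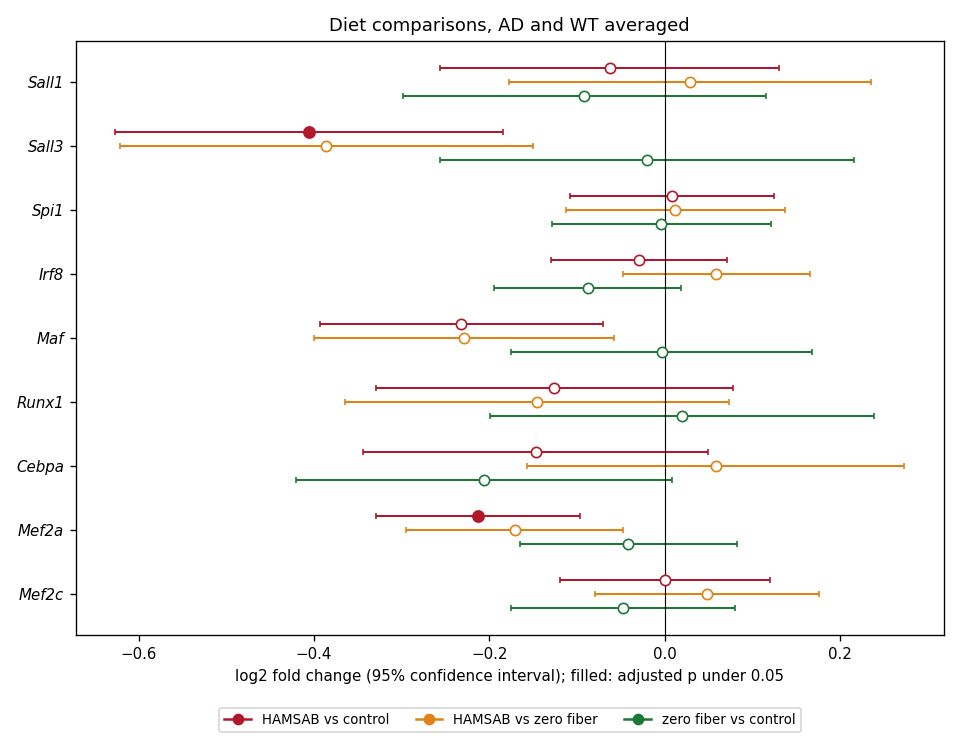
log2 fold changes of the 9 factors with 95% confidence intervals for HAMSAB against control, HAMSAB against zero fiber and zero fiber against control, genotypes averaged. Filled points passed the test: Sall3 (-0.41) and Mef2a (-0.21) for HAMSAB against control.

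Paralogs of one family were set side by side within each library, which needs no scaling between libraries. The ratio of Mef2a to Mef2c, in CPM per kb, was 0.676 ± 0.0843 on HAMSAB and 0.786 ± 0.0636 on the control diet (SD, n = 16 each). In zero fiber libraries with at least 1000000 counts it was 0.763 ± 0.0884 (n = 12). For Sall3 over Sall1 the ratio was 0.214 ± 0.0480 on HAMSAB, 0.288 ± 0.0856 on zero fiber and 0.272 ± 0.0462 on the control diet. Both ratios were lower on HAMSAB by more than 1 SD of the control libraries, and their ranges overlapped; these ratios were chosen after the data were seen and were not tested.

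HAMSAB was also compared with zero fiber over both genotypes. None of the 9 factors passed the edgeR test, where 1.02% of all genes were called, and 3 of 9 had an unadjusted p under 0.05, as did 13.3% of all genes. Those were Sall3 (log2 fold change -0.39 ± 0.12, adjusted p = 0.0984), Mef2a (-0.17 ± 0.06, adjusted p = 0.194) and Maf (-0.23 ± 0.09, adjusted p = 0.207; SE in each case). DESeq2 and voom called none of the 9. This comparison shares its HAMSAB libraries with the comparison above. Zero fiber against control gave 0 called factors by edgeR, DESeq2 and voom, against 0.363% of all genes, with 0 factors and 13.1% of all genes at an unadjusted p under 0.05. The 5 red blood cell markers summed to 216 ± 219 CPM on zero fiber (SD, n = 14). Their sum was 42.1 ± 37.6 CPM on the control diet and 48.0 ± 55.3 CPM on HAMSAB (SD, n = 16 each). The part of these cells in either comparison with zero fiber was not tested. Between zero fiber and control, Cebpa had the largest difference in size, -0.21 ± 0.11 (SE, edgeR adjusted p = 0.409).

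In AD mice alone, Sall3 averaged 164 ± 29.2 CPM on HAMSAB, 236 ± 62.4 CPM on zero fiber and 246 ± 58.9 CPM on the control diet (SD, n = 8 each), with all 8 HAMSAB libraries below the median of the control AD libraries. Its log2 fold change was -0.58 ± 0.16 (SE) against control AD and -0.57 ± 0.16 against zero fiber AD, and neither passed the edgeR test (adjusted p = 0.0705 and 0.117). DESeq2 and voom called the comparison with control AD (adjusted p = 0.0432 and 0.0415). The count of called factors by edgeR was 0 of 9 in both, where 0.0743% of all genes were called against control AD and 0.239% against zero fiber AD, and 4 and 2 of the 9 factors had an unadjusted p under 0.05, as did 15.3% and 10.6% of all genes. Zero fiber against control in AD mice gave 0 of 9 called by edgeR, DESeq2 and voom, against 0.0578% of all genes, and 0 factors and 10.8% of all genes at an unadjusted p under 0.05.

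Cebpa, a C/EBP factor that myeloid progenitors need to form granulocytes and monocytes, had 42.8, 63.2 and 87.7 CPM in HAMSAB AD libraries (lowest, median and highest) and 66.4, 84.5 and 111 CPM in control AD libraries. In WT mice it had 68.9, 84.1 and 96.9 CPM on HAMSAB and 67.2, 75.4 and 99.0 CPM on the control diet. The AD groups overlapped, and the log2 fold change in AD mice was -0.39 ± 0.14 (SE, edgeR adjusted p = 0.162). The difference between the genotypes in this diet effect was -0.49 ± 0.20 and also missed the threshold (adjusted p = 0.873). By title series the difference in mean log2 CPM in AD mice was -0.44 among lower numbers (5 HAMSAB and 4 control libraries) and -0.21 among higher numbers (2 and 4).

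Within WT mice no factor was called by edgeR, DESeq2 or voom. The share of all genes called was 2.19% for HAMSAB against zero fiber, 0.281% for HAMSAB against control and 0.00825% for zero fiber against control. One factor had an unadjusted p under 0.05 in each of these: Mef2a (log2 fold change -0.21 ± 0.09 and -0.24 ± 0.08, SE) in those with HAMSAB, and Sall1 (-0.37 ± 0.15) for zero fiber against control, with edgeR adjusted p of 0.31, 0.154 and 0.566. Of all genes, 12%, 13.3% and 7.58% had an unadjusted p under 0.05 in these comparisons.

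AD and WT mice were compared on each diet to ask whether the disease model shifts these factors. None of the 9 passed the edgeR, DESeq2 or voom test on any diet. The share of all genes called by edgeR was 1.68% on HAMSAB, 0.00825% on zero fiber, 0% on the control diet and 0.0165% over the 3 diets. Unadjusted p was under 0.05 for 2 factors on HAMSAB, 1 on zero fiber, 0 on control and 0 over the 3 diets, and for 12%, 4.7%, 5.4% and 7.28% of all genes. Over the 3 diets the log2 fold changes lay between -0.12 ± 0.09 for Sall3 and 0.09 ± 0.09 for Runx1 (SE). The 95% confidence interval was -0.10 to 0.10 for Spi1 and -0.09 to 0.09 for Irf8.

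Sall1 showed the widest gap between genotypes, on the zero fiber diet. It had 324, 672 and 981 CPM in zero fiber AD libraries and 430, 501 and 645 CPM in zero fiber WT libraries (lowest, median and highest). The library at 324 CPM is the one of lowest total, with 21 reads of Sall1. The log2 fold change was 0.43 ± 0.16 (SE, edgeR adjusted p = 0.945). Without the 2 doubted libraries it was 0.56 (adjusted p = 0.497). By title series the difference in mean log2 CPM turned sign, at -0.10 among lower numbers (4 AD and 4 WT libraries) and 0.83 among higher numbers (4 AD and 2 WT). On the control diet the difference was -0.13 ± 0.14 and on HAMSAB -0.11 ± 0.14. The difference between zero fiber and control in this genotype effect was 0.56 ± 0.21 (adjusted p = 0.548), so it did not pass the test. On the control diet the difference in mean log2 CPM was 0.18 among lower numbers (4 AD libraries and 1 WT) and -0.16 among higher numbers (4 AD and 7 WT).

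**Figure D4:**
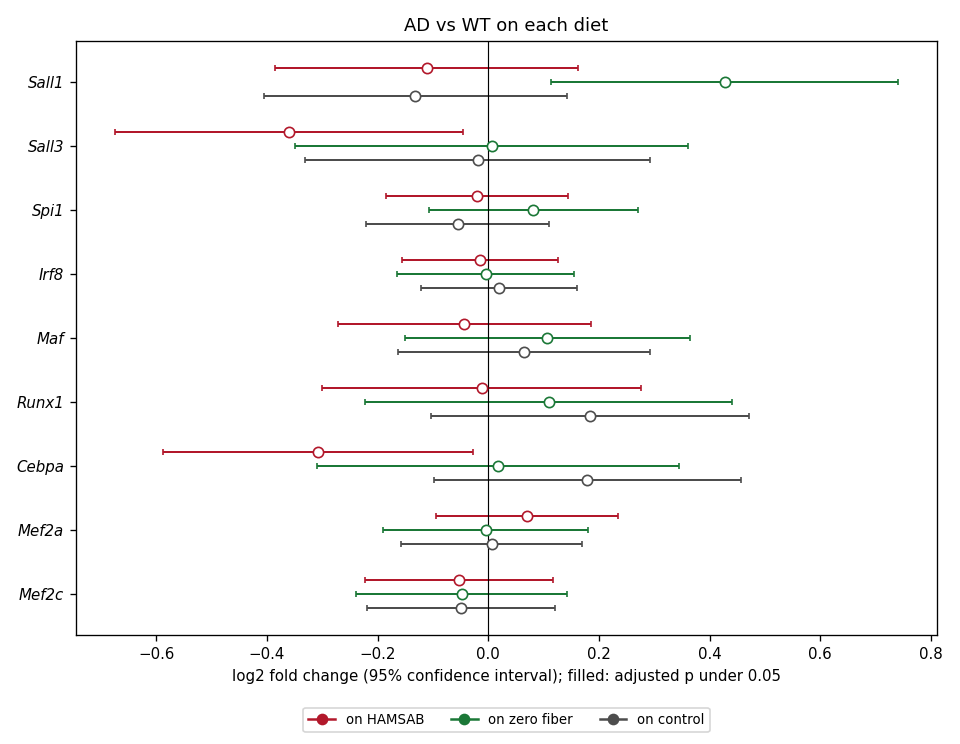
log2 fold changes of the 9 factors between AD and WT mice with 95% confidence intervals, on HAMSAB, zero fiber and control. No point is filled, since none passed the test, and Sall1 on zero fiber lies farthest from 0 at 0.43.

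Tests of whether the diet effect differed between genotypes called 0 of 9 factors with edgeR, DESeq2 and voom. Of all genes, 1.08% were called by edgeR for HAMSAB against zero fiber, 0% for HAMSAB against control and 0% for zero fiber against control. In each of the 3 tests 1 factor had an unadjusted p under 0.05, Sall1 in those with zero fiber and Cebpa for HAMSAB against control, and so did 5.53% to 9.46% of all genes. A test for any difference among the 6 groups called 0 factors by edgeR, against 4.36% of all genes, with 2 factors and 18.8% of all genes at an unadjusted p under 0.05. The 2 were Sall3 (edgeR adjusted p = 0.0666) and Mef2a (adjusted p = 0.16). DESeq2 called Sall3 in that test, and voom none. Female and male libraries did not differ in any of the 9 factors by edgeR, DESeq2 or voom at the threshold, with 0.124% of all genes called and 0 factors, against 10.5% of all genes, at an unadjusted p under 0.05.

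Other genes of the same families were followed as a list of 25, of which 17 had enough counts. Over both genotypes, HAMSAB against zero fiber changed 3 of 17, where 1.02% of all genes were called. Irf9, a DNA-binding factor of interferon signalling, rose (log2 fold change 0.37 ± 0.08, SE; edgeR adjusted p = 0.00821). Irf7, an inducer of type I interferon genes, also rose (0.95 ± 0.22, adjusted p = 0.0211). Its levels were 25.1 ± 9.66 CPM in HAMSAB AD, 22.8 ± 10.9 in HAMSAB WT, 10.7 ± 5.93 in zero fiber AD and 12.2 ± 3.98 CPM in zero fiber WT (SD). Control libraries had 16.4 ± 7.61 CPM of Irf7 in AD and 24.2 ± 15.5 CPM in WT mice (SD). Neither gene was called for HAMSAB against control: Irf7 had 0.31 ± 0.19 and Irf9 0.18 ± 0.07 (SE, edgeR adjusted p = 0.353 and 0.113). Zero fiber against control gave -0.64 ± 0.23 for Irf7 (adjusted p = 0.186). Cebpd, a C/EBP factor of inflammatory responses, fell on HAMSAB against zero fiber (-0.40 ± 0.09, adjusted p = 0.0216).

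Cebpd fell as well against the control diet (-0.29 ± 0.09, edgeR adjusted p = 0.0483), and against zero fiber in WT mice (-0.61 ± 0.14, adjusted p = 0.0119). In each it was the 1 gene called of 17, where 4.52% and 2.19% of all genes were called, and nothing about the list is read from a count of 1. Irf8 itself had a log2 fold change of 0.06 ± 0.05 between HAMSAB and zero fiber; whether it differed from Irf7 or Irf9 in that was not tested. Sall4, Spib, Spic, Maff, Runx2, Runx3, Cebpe and Mef2b did not have enough counts to test.

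A second list held 28 further regulators of microglia, 26 of them tested. Tal1, a bHLH factor of blood cell development, fell on HAMSAB against control (-0.35 ± 0.10, adjusted p = 0.0299). It was the only gene of the 26 called in that comparison, where 4.52% of all genes were called, so the list held no larger share than all genes.

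Another list held 15 genes of the microglial and myeloid program, among them Csf1r, Cx3cr1, P2ry12 and Tmem119. None of the 15 was called in any comparison by edgeR. The share of all genes called was at most 4.52% in any comparison, so nothing about this list is read from that. For HAMSAB against control over both genotypes, 10 were lower and 5 higher, with a median log2 fold change of -0.08 and 5 at an unadjusted p under 0.05, as were 22% of all genes. Cx3cr1, the fractalkine receptor, had the smallest p there (-0.18 ± 0.07, SE, edgeR adjusted p = 0.0963). Of the 5, Tyrobp, an adaptor of TREM2, had a positive value (0.17 ± 0.07, adjusted p = 0.117) and the other 4 negative ones. No gene of these 3 lists was called by edgeR between AD and WT mice on any diet. Of all genes, 1.68% were called there on HAMSAB, 0.00825% on zero fiber and 0% on the control diet.

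The factors also varied with one another between libraries of the same group. For each of the 36 pairs, the correlation of log2 CPM deviations from the diet, genotype and sex means was computed over the 44 libraries with at least 1000000 counts, each with 100000 permutations. After Benjamini-Hochberg adjustment over the 36 pairs, 6 passed at 0.05, all 6 positive, and the same 6 passed with Spearman's rho. Sall1 with Cebpa and Maf with Mef2a passed with rho alone (rho = 0.40, adjusted permutation p = 0.0321 for both). The means were taken over all 46 libraries, and the permutations moved deviations freely between groups. They did not allow for the means that had been removed, which makes these p-values too small. Whether the pairs nearest the threshold would pass with that allowance was not tested.

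Runx1 and Mef2a were the closest pair (Pearson r = 0.64, adjusted permutation p = 0.00036; rho = 0.59, adjusted permutation p = 0.00072). Their r was 0.58 without the 2 libraries farthest from the median of Runx1, 0.63 among lower title numbers (21 libraries) and 0.49 among higher ones (22). Maf and Mef2c followed (r = 0.63, adjusted permutation p = 0.00036; rho = 0.54, adjusted permutation p = 0.00162), with r = 0.57 without the 2 farthest, 0.62 in the lower series and 0.68 in the higher. Sall3 and Mef2c had r = 0.53 and rho = 0.60 (adjusted permutation p = 0.00288 and 0.00072), with r = 0.63 without the 2 farthest, 0.55 in the lower series and 0.50 in the higher.

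Maf and Runx1 had r = 0.52 and rho = 0.48 (adjusted permutation p = 0.00288 and 0.00641), with r = 0.50 without the 2 farthest and 0.66 and 0.29 in the lower and higher series. Irf8 and Mef2c had r = 0.45 and rho = 0.54 (adjusted permutation p = 0.0138 and 0.00108), with r = 0.48 without the 2 farthest and 0.47 and 0.43 in the series. Mef2a and Mef2c had r = 0.45 and rho = 0.45 (adjusted permutation p = 0.0138 and 0.0135), with r = 0.51 without the 2 farthest and 0.61 and 0.39 in the series. This pair did not pass with group means kept (r = 0.33, adjusted permutation p = 0.1). Mef2c was thus in 4 of the 6 pairs, while Spi1 was in none, with r between -0.28 and 0.04. These libraries also share depth and RNA quality differences, whose part in the correlations was not tested. The trend on transcript length was not removed for the correlations, and its part was not tested either. Genes in the 6 pairs were the longest members, with 7055 (Irf8) to 15715 exon bases (Mef2c). The members in none of the 6 were shorter: Sall1 with 5265, Spi1 with 2695 and Cebpa with 2636 bases.

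**Figure D5:**
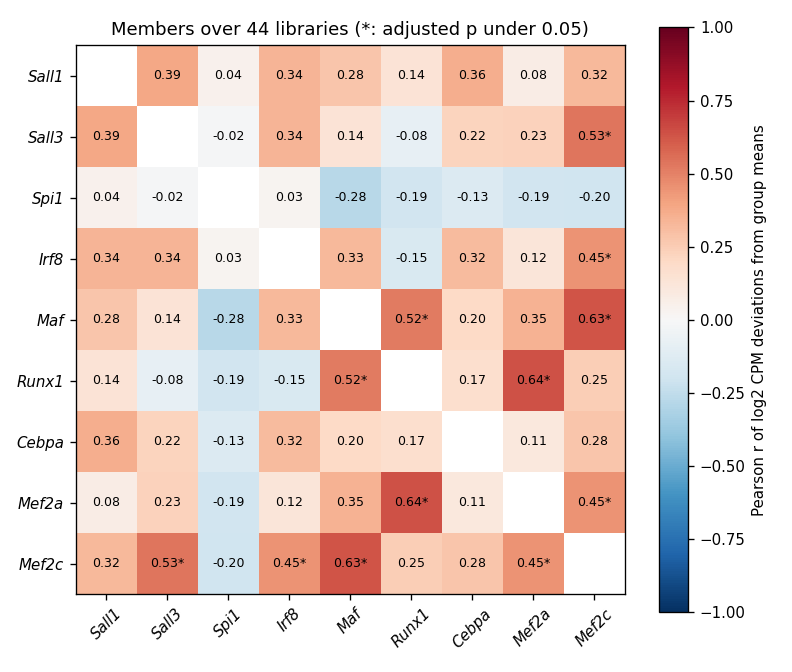
Pearson r between the 9 factors, from log2 CPM deviations from group means over 44 libraries, on a scale from -1 (blue) to 1 (red), with * where the adjusted permutation p was under 0.05. Runx1 with Mef2a (0.64) and Maf with Mef2c (0.63) had the highest r, and the Spi1 row held the lowest, -0.28 with Maf.

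Genes with the most similar pattern to 8 of the factors were named by Pearson's r of log2 CPM over the same 44 libraries, group differences included, as a description. Those of highest r were Dpy19l1 for Sall1 (r = 0.59), Tet3 for Sall3 (0.73), Siglece for Spi1 (0.65), Adora3 for Irf8 (0.57) and Klf3 for Maf (0.76). For Cebpa it was Gna13 (0.75), for Mef2a Pwwp2a (0.72) and for Mef2c Agtpbp1 (0.69). None of the first 3 genes for any of the 9 factors was another of them.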

How the data were processed

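The authors deposited raw read counts per gene for 46 libraries, not normalized; the submitters' processing notes list STAR 2.5.2b, featureCounts 1.5.2 and GRCm38 (mm10). Annotation release, strandedness and handling of multiply matching reads: not given in the sources used here. Genes under a minimum count of 10 (edgeR filterByExpr) were left out, which kept 12121. Comparisons came from 1 edgeR 4.0.16 quasi-likelihood fit (R 4.3.3; TMM factors 0.918 to 1.25) to all libraries, with group means by diet, genotype and sex, sexes weighted equally, and Benjamini-Hochberg adjusted p under 0.05 as the threshold. A log2 CPM used a prior count of 2. Positions and exon lengths came from GENCODE M21, promoter windows from a RefSeq table for GRCm38.p6, in which 6 of the 9 members were used; windows of 3 are printed. Replicate numbers follow accession order and pair no libraries. No library was a copy of another (smallest chi-square per degree of freedom within a group, 1.62).

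Alternatives were DESeq2 size factors, no low-count filter, the DESeq2 1.42.0 test, limma 3.58.1 voom with quality weights, a title series term, additive sex, only the libraries compared, no doubted libraries, each library left out and, chosen after seeing the data, the trend on transcript length removed. Correlations were computed in Python 3.11.15 with NumPy 2.4.6. All 9 members were named in each comparison; from the other lists, up to 4 called genes by p, or the 1 of smallest p. Not every such gene is reported here. The members and lists were chosen with earlier results of these data known. The fits were tested on simulated data.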

Additional observations from a re-analysis of the deposited data

Results flagged for a closer look

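In 54 groups of 6 to 8 libraries, 1 per factor and group, the highest or lowest library was compared with its nearest neighbour by Dixon's ratio, which chance flags in about 5% of groups. It stood apart in 5. Sall1 was 924 CPM in HAMSAB WT replicate 1, the highest of 8. Sall3 was 378 CPM in control AD replicate 5, the highest of 8. Runx1 was 82.8 CPM in HAMSAB AD replicate 8, the lowest of 8. Cebpa was 201 CPM in zero fiber AD replicate 3, the highest of 8, which rests on 13 reads in the library of lowest total. Cebpa was 99 CPM in control WT replicate 2, the highest of 8.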

How the results depend on the processing

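For HAMSAB against control over both genotypes, the fold changes of Sall3 and Mef2a kept their sign under each alternative run. Sall3 was called in each of the 32 fits without 1 library (log2 -0.48 to -0.35), and Mef2a in 31 (-0.24 to -0.19). The number of called factors was 1 (Sall3) with the length trend removed, and 1 to 3 without single libraries: 1 without control AD replicate 3, and 3, with Maf added, without HAMSAB WT replicate 5 or 8. Without the low-count filter Sall3 and Maf were called and Mef2a was not (adjusted p = 0.089). In comparisons where the fit above called 0, Sall3 alone made the number 1: for HAMSAB against control in AD, with no filter, DESeq2, voom and only the libraries compared; for HAMSAB against zero fiber in AD and over both genotypes, with no filter; and for any difference among the 6 groups, with no filter, DESeq2 and the title series term. Without single libraries it ranged from 0 to 1 for HAMSAB against zero fiber over both genotypes (1 without HAMSAB WT replicate 1). It also ranged from 0 to 1 for any difference (1 without zero fiber AD replicates 2 or 4, HAMSAB WT replicates 1 or 7, or zero fiber WT replicates 5 or 6). Elsewhere it was 0 in each such fit. Correlated pairs numbered 10 with all 46 libraries and 9 with group means kept, against 6; of the 6, Mef2a with Mef2c did not pass with group means kept. The causes were not tested. No paired analysis was possible because the labels give no replicate numbers. Depth limits the library of 52114 counts most, where Sall3 had 10 reads and Cebpa 13.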
